A study of Hipposideros armiger and Mus musculus with 20 samples.

Results

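The Wnt pathway genes of 2 mammals' fat were described from RNA sequencing of mouse and bat adipose depots. Genes were taken by symbol: the Wnt ligands, the Frizzled receptors (Fzd), secreted Frizzled-related proteins (Sfrp), Dickkopf genes (Dkk, with Dkkl1), Dishevelled genes (Dvl), R-spondins (Rspo), Axin1, Axin2, Daam1, Daam2 and the Tcf7 genes, with Apcdd1, Lef1, Lrp5, Lrp6 and Ctnnb1. This named 54 of the 14871 genes in the deposited table, and a member was used in a species where it reached 1 FPKM (fragments per length of transcript, scaled to the library) in at least 2 of that species' libraries. By that rule 37 members were used in mouse and 31 in bat, 27 of them in both, 10 in mouse alone and 4 in bat alone (Dkk4, Rspo1, Rspo3 and Wnt2b). The remaining 13 passed in neither species: Dkk1, Fzd3, Fzd9, Fzd10, Rspo2, Wnt3, Wnt3a, Wnt6, Wnt7a, Wnt8a, Wnt8b, Wnt9b and Wnt16. In mouse the second-highest deposited FPKM, on which the threshold acts, was 1.07 for Wnt4 and 1.11 for Wnt10a, just inside, and 0.825 for Rspo1 and 0.819 for Fzd10, just outside. In bat it was 1.12 for Wnt9a and 1.37 for Sfrp4 inside, and 0.990 for Tcf7 and 0.942 for Wnt5b outside.

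The animals were ICR mice and great roundleaf bats (Hipposideros armiger), kept at 30 °C or 10 °C for 7 days. The mouse depots were brown fat from between the shoulder blades (iBAT) and white fat from under the skin (sWAT), with 8 libraries. The bat depots were iBAT, sWAT and abdominal white fat (aWAT), with 12 libraries. Each of the 10 groups of species, depot and temperature holds 2 libraries, 1 from a female and 1 from a male, and no treatment other than temperature is named. The labels state no ages, and do not say how many animals stand behind a library or whether the depots of a group share animals. The p-values below therefore measure the spread between these libraries.

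Wnt ligands are lipid-modified secreted proteins that bind a Frizzled receptor together with the co-receptor Lrp5 or Lrp6. In the canonical branch, Dishevelled then disarms the complex of Axin, Apc and kinases that destroys beta-catenin (Ctnnb1), and beta-catenin acts with TCF/LEF factors on target genes, Axin2 among them. R-spondins strengthen the signal by keeping Frizzled receptors on the surface, and Sfrp, Dkk and Apcdd1 proteins oppose it outside the cell. Other Wnt ligands, such as Wnt5a and Wnt11, are best known for beta-catenin-independent signalling through Dishevelled and the Daam formins to the cytoskeleton. In fat, Wnt10b is known as a brake on the differentiation of adipocytes, and Sfrp5 as a secreted product of white adipocytes.

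Levels are given as scaled FPKM, the deposited FPKM multiplied by 1 factor per library (0.659 to 1.497 in mouse, 0.890 to 1.16 in bat) that sets the libraries of a species on a common scale. Where 2 values are given for a group, the female library comes first. Bat values are filed under mouse gene identifiers and the way they were assigned is not given, so levels are compared within a species and not between species. Differences are log2 coefficients from limma on log2(scaled FPKM + 1), which understates changes of low genes, with the standard error (SE) and a Benjamini-Hochberg adjusted p over all genes tested. A gene is called where that p is under 0.05.

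Some libraries stood apart in what other cells they held. The female and male libraries of a group correlated at 0.912 to 0.982 (Pearson r across genes, log2 scale), lowest in mouse sWAT at 10 °C. Skeletal muscle markers (4 of 6 in the table) summed to 1247 and 1083 scaled FPKM in warm mouse iBAT and to 3.21 and 845 in cold mouse iBAT. In mouse sWAT the same sum was 14.5 and 5.30 at 30 °C and 9.57 and 1035 at 10 °C. In bat sWAT it was 8.33 and 1.81 warm and 175 and 335 cold, where all 4 markers were called higher in the cold, and 0.816 to 1.99 in the other bat libraries. T lymphocyte markers (4 of 7 in the table) summed to 237 and 260 in warm mouse sWAT, 100.1 in the cold female and 2.33 in the cold male library, against 1.42 to 2.33 in mouse iBAT. Epithelial markers (Epcam and Krt14) were high in female mouse sWAT, 56.4 and 32.8, and low in the males, 0.759 and 0.0515. In bats their sum was highest in the cold female libraries, 7.49 in sWAT, 12.85 in aWAT and 15.53 in iBAT. The other bat libraries had 0.510 to 3.925. Mesothelium markers (5 of 6 in the table) marked bat aWAT, at 66.3 and 108.7 warm and 44.6 and 79.8 cold, against 0.391 to 12.7 in the other bat libraries. The labelled depots carried their defining marker: Ucp1, the uncoupling protein of brown fat, was 2942 and 2789 in warm bat iBAT against 0.385 and 0.581 in warm bat sWAT. In these bulk samples fewer cells of a type and less RNA per cell cannot be told apart.

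Beta-catenin and the receptor Fzd4 were the most abundant members in both species, and most members were low. Ctnnb1 had the highest mean in mouse, 72.7 scaled FPKM (54.1 to 97.0 over the 8 libraries), followed by Fzd4 at 26.3 (9.38 to 35.9) and the inhibitor Apcdd1 at 14.2 (0.730 to 36.2). In bat, Fzd4 came first at 104.1 (68.8 to 141.2), then Ctnnb1 at 44.1 (31.6 to 57.6), Daam2 at 39.0 (8.14 to 86.8), Dvl1 at 38.8 (32.1 to 46.4) and Wnt11 at 35.8 (4.67 to 86.2). FPKM is a level per transcript length, so these orders compare genes within a species. The mean was under 5 in 26 of the 37 mouse members and in 20 of the 31 bat members.

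The spread over the libraries differed from member to member. In mouse, the co-receptor Lrp6 stayed between 6.60 and 9.02 and the Dishevelled Dvl1 between 7.08 and 11.4. In bat, Axin1 stayed between 4.81 and 6.61 and the receptor Fzd6 between 4.31 and 5.88. At the other end, bat Sfrp5 ran from 1.44 to 85.4, bat Daam2 from 8.14 to 86.8, mouse Apcdd1 from 0.730 to 36.2 and mouse Tcf7 from 0.187 to 42.7. Fzd4 in mouse sWAT was 31.6 and 35.7 in the male libraries and 9.38 and 11.7 in the female ones.

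**Figure D1:**
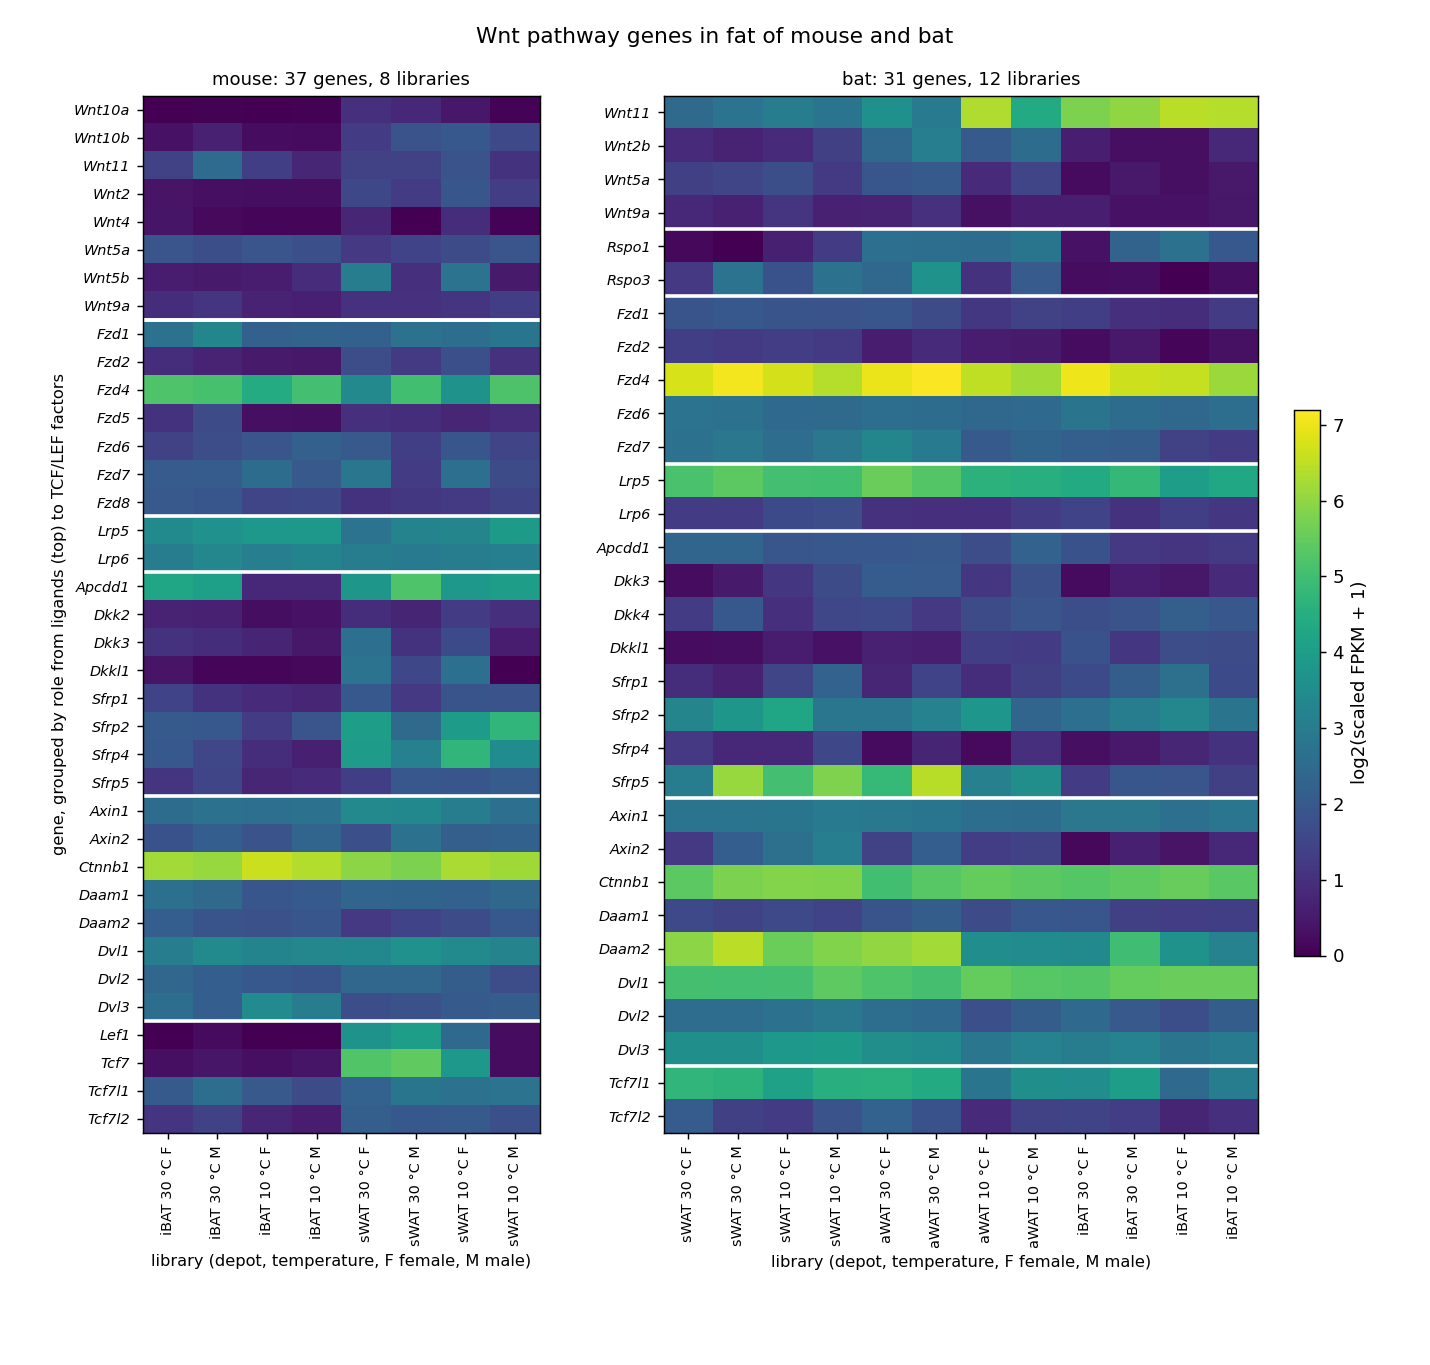
Level of each Wnt pathway gene (rows, grouped by role from ligands at the top to TCF/LEF factors at the bottom, white lines between roles) in each library (columns), as log2(scaled FPKM + 1), for 37 mouse and 31 bat genes. Bright rows are Ctnnb1 and Fzd4 in both species, and Wnt11, Sfrp5 and Daam2 are bat rows whose colour changes between depots.

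In warm bats, brown fat held more Wnt11 and less Sfrp5 and Daam2 than either white depot. Against sWAT, 2 of the 31 members were higher and 9 lower in iBAT (24.1% of the 11025 genes tested were called in either direction), with a median coefficient of -0.35 over the members against -0.01 over all genes. Against aWAT, again 2 were higher and 9 lower (18.7% of all genes called), with medians of -0.37 and -0.01. Both comparisons use the same 2 iBAT libraries. The count of 11 against sWAT became 3 without the male sWAT library and 6 without either iBAT library. The count of 11 against aWAT became 7 without the female and 6 without the male aWAT library, and 7 without the female iBAT library. Of the 31 bat members, 7 reached 1 deposited FPKM in white depots only (Axin2, Dkk3, Rspo3, Sfrp4, Wnt2b, Wnt5a and Wnt9a), Fzd2 in sWAT only and Dkkl1 in iBAT and aWAT only, so that the filter itself leans towards a depot difference for these 9 members. Among the 22 members that reached it in both iBAT and sWAT, 1 was called higher and 6 lower in iBAT, and among the 23 that reached it in both iBAT and aWAT, 2 and 4.

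Among the ligands, Wnt11 (ENSMUSG00000015957), a ligand of the beta-catenin-independent branch, stood at 54.3 and 63.7 scaled FPKM in warm bat iBAT, 4.67 and 5.75 in sWAT and 11.3 and 6.60 in aWAT. All 4 iBAT libraries of either temperature lay above all 4 sWAT libraries. The iBAT mean was 11.3 times the sWAT mean (log2 coefficient 3.27 ± 0.49, adjusted p = 0.00146) and 6.61 times the aWAT mean (2.63 ± 0.49, adjusted p = 0.00627). Both calls held under all 19 alternatives run. Wnt5a went the other way, with 0.162 and 0.411 in iBAT, 1.58 and 1.83 in sWAT and 2.84 and 3.14 in aWAT. It was lower in iBAT than in sWAT (-1.08 ± 0.26, adjusted p = 0.0150) and than in aWAT (-1.64 ± 0.26, adjusted p = 0.00296). The first call was lost without the male sWAT (-1.01) or the female iBAT library (-0.94). Wnt2b was 0.531 and 0.219 in iBAT, lower than in aWAT (-2.30 ± 0.30, adjusted p = 0.00111), and Wnt9a lay between 0.257 and 1.11 in every bat library.

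Of the R-spondins, Rspo3 had 0.178 and 0.197 in warm bat iBAT, 1.30 and 5.63 in sWAT and 4.37 and 11.9 in aWAT. It was lower in iBAT than in aWAT (-2.81 ± 0.56, adjusted p = 0.00839). That call was lost without the male aWAT library (-2.17). Against sWAT the coefficient was -1.72 ± 0.56 (adjusted p = 0.0517), which missed the threshold but passed in 6 of the 19 alternatives run, among them without the female sWAT library (-2.48). The receptors were lower in iBAT by smaller amounts: against sWAT, Fzd2 (-0.91 ± 0.19), Fzd1 (-0.77 ± 0.20), Fzd7 (-0.63 ± 0.20) and the co-receptor Lrp5 (-0.66 ± 0.19) were called, and against aWAT Fzd7 (-0.96 ± 0.20) and Lrp5 (-0.81 ± 0.19). Against sWAT, Fzd7 was lost without any 1 of the 8 iBAT and sWAT libraries of either temperature (-0.70 to -0.56) and Lrp5 without any 1 of the 4 sWAT libraries or the female warm iBAT library (-0.78 to -0.46). Fzd1 was lost there without either warm sWAT or the male iBAT library (-0.83 to -0.61), and Fzd2 without the female iBAT library (-0.78). Against aWAT, both calls were lost without the female aWAT library (-0.77 and -0.68). Fzd7 was also lost without the male iBAT library (-0.93) and Lrp5 without the female iBAT library (-0.61). Lrp5 stood at 20.2 and 27.0 in iBAT, 34.4 and 41.0 in sWAT and 46.0 and 38.0 in aWAT, with no overlap of iBAT with either white depot. Lrp6, the other co-receptor, was at 1.70 and 1.08 in iBAT and 1.38 and 1.37 in sWAT, with overlap and a 95% interval of -0.43 to 0.43 for the coefficient.

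Sfrp5 (ENSMUSG00000018822), the secreted Wnt antagonist of white adipocytes, had 1.44 and 2.79 scaled FPKM in warm bat iBAT, 7.26 and 66.7 in sWAT and 27.2 and 85.4 in aWAT. The iBAT values overlapped with neither white depot, although in each white depot the male library was far above the female one. The coefficient was -2.96 ± 0.83 against sWAT (adjusted p = 0.0288) and -4.02 ± 0.83 against aWAT (adjusted p = 0.00970). Without the male sWAT library the first became -1.44 and was no longer called, nor was it without either iBAT library (-2.64 and -3.29), and without the female sWAT library it was -4.47. The second was lost without the male aWAT (-3.21) or the female iBAT library (-3.70). Dkk3, a divergent Dickkopf, was lower in iBAT than in aWAT (-1.69 ± 0.28, adjusted p = 0.00360), and Apcdd1, a membrane inhibitor that binds Wnt and Lrp5, was lower than in sWAT (-0.84 ± 0.25, adjusted p = 0.0334). The Apcdd1 call held in 12 of 19 alternatives and was lost without the male warm iBAT library (-0.53) or any 1 of the 4 sWAT libraries (-0.84 to -0.83). Dkkl1, a Dickkopf-related gene, was the other higher member, at 2.53 and 1.22 in iBAT against 0.185 and 0.209 in sWAT (1.22 ± 0.23, adjusted p = 0.00415) and 0.590 and 0.517 in aWAT (0.85 ± 0.23, adjusted p = 0.0286). Against aWAT its call was lost without the female iBAT library (0.51) or either aWAT library (0.88 and 0.82).

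Inside the cell, Daam2, a formin that binds Dishevelled, had 9.82 and 30.6 scaled FPKM in warm bat iBAT, 60.3 and 86.8 in sWAT and 64.1 and 73.0 in aWAT. Its coefficient was -1.99 ± 0.41 against sWAT (adjusted p = 0.00732) and -1.91 ± 0.41 against aWAT (adjusted p = 0.0117). Without the female iBAT library these became -1.21 and -1.13, still called. The first was lost without the male sWAT library (-1.73) and the second without either aWAT library (-2.001 and -1.81). Axin2, the scaffold that is also a standard target gene of the pathway, had 0.107 and 0.541 in iBAT, 1.28 and 3.48 in sWAT and 1.63 and 3.40 in aWAT, and was called lower in iBAT in both comparisons (-1.29 ± 0.36, adjusted p = 0.0291, and -1.38 ± 0.36, adjusted p = 0.0271). Each of the 2 calls held in 14 of 19 alternatives. Against sWAT it was lost without the male sWAT library (-0.81) or either iBAT library (-1.05 and -1.53), and against aWAT without the male aWAT library (-1.001) or either iBAT library (-1.14 and -1.62). For Ctnnb1 itself the coefficient against sWAT was -0.23 ± 0.18 (95% interval -0.63 to 0.18). Tcf7l1, a TCF factor best known as a repressor, was at 10.6 and 15.5 in iBAT and 25.6 and 24.2 in sWAT, a coefficient of -0.90 ± 0.30 (adjusted p = 0.0539) that missed the threshold and passed in 4 of 19 alternatives.

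**Figure D2:**
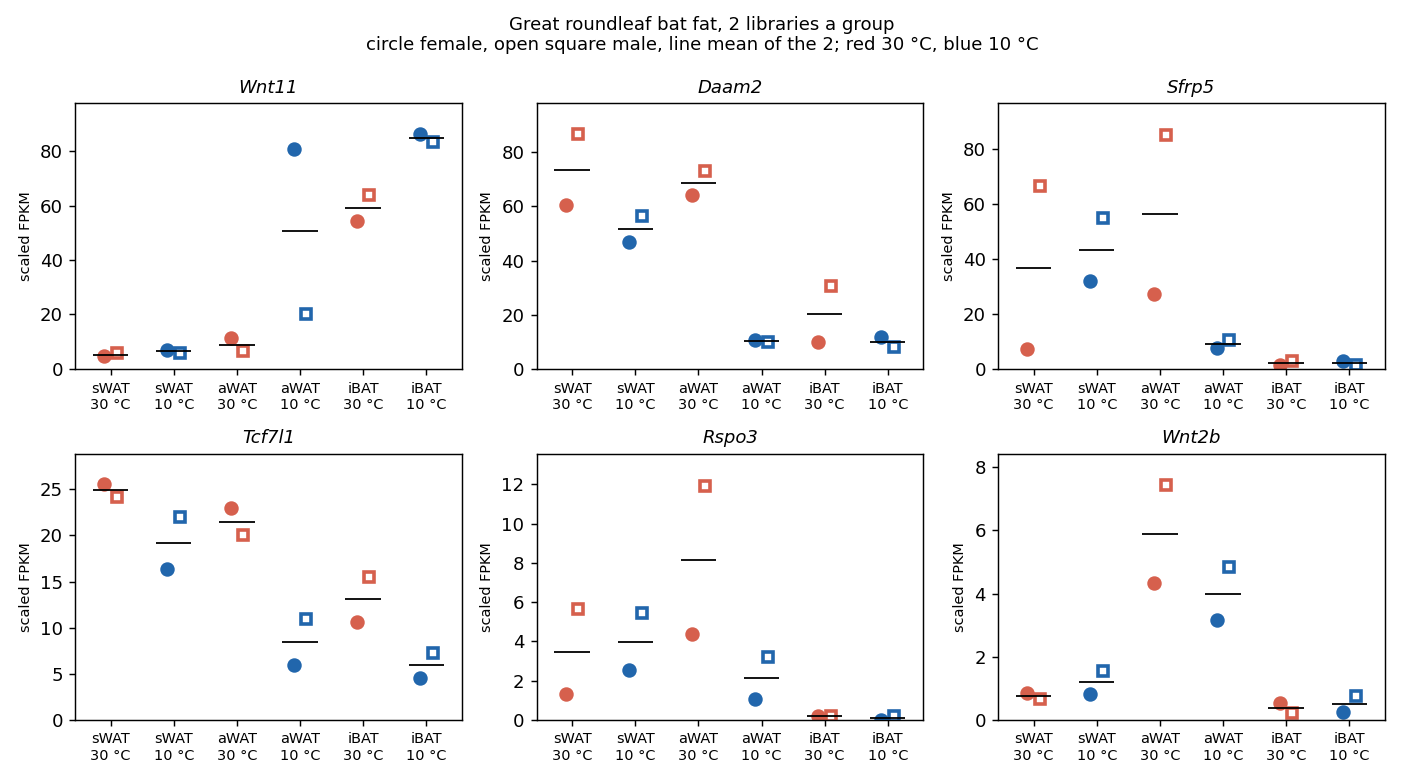
Scaled FPKM of 6 Wnt pathway genes in the 6 bat groups, with each library as a point (circle female, open square male) and the mean of the 2 as a line, red at 30 °C and blue at 10 °C. Wnt11 is high in iBAT at both temperatures and in cold aWAT, and Daam2 is at 10.6 and 10.1 in cold aWAT against 64.1 and 73.0 in warm aWAT.

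Markers of several other cells moved with these depot differences. Of 9 fibroblast and progenitor markers, 6 were lower in warm bat iBAT than in sWAT and 4 lower than in aWAT, with sums of 224 and 274 in iBAT, 1274 and 1442 in sWAT and 652 and 778 in aWAT. Of 4 macrophage markers, 3 and 2 were lower. Of 6 brown fat markers, 3 were higher than in sWAT and 4 higher than in aWAT, with sums of 5593 and 4899 in iBAT, 587 and 815 in sWAT and 379 and 940 in aWAT. All 5 mesothelium markers were lower in iBAT than in aWAT, with a median coefficient of -3.74 and sums of 0.391 and 1.36 in iBAT against 66.3 and 108.7, beside the lower Wnt2b, Dkk3 and Rspo3. Of 4 Schwann cell markers, 3 were higher in iBAT than in sWAT and 2 higher than in aWAT. Of the fibroblast, macrophage and brown fat lists, only Prdm16 and Ppargc1a were at 0 in a warm white fat library, and the lists' part in the Wnt pathway differences was not tested.

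Between the 2 bat white depots, Wnt2b and Dkk3 were the only members called. In warm bats, 2 of the 31 members were higher in aWAT than in sWAT and none lower (0.844% of all genes called), and 5 members had an unadjusted p under 0.05. The count was 0 without either sWAT library or the male aWAT library and 1 without the female aWAT library. Wnt2b, a canonical ligand, had 4.35 and 7.43 scaled FPKM in aWAT and 0.860 and 0.647 in sWAT, 7.82 times the mean (1.94 ± 0.30, adjusted p = 0.0182). Outside aWAT, Wnt2b reached 1 deposited FPKM only in the cold male sWAT library (1.69), so that the filter leans towards a higher value in aWAT. Dkk3 had 3.25 and 3.22 against 0.186 and 0.422, 10.7 times the mean (1.71 ± 0.28, adjusted p = 0.0234). Rspo1 had 5.21 and 5.02 in aWAT against 0.123 and 0 in sWAT, without overlap, and its coefficient of 2.53 ± 0.52 missed the threshold (adjusted p = 0.0667). At 10 °C, where these depots were not tested against each other, Wnt2b and Rspo1 kept their order. Wnt2b was 3.15 and 4.84 against 0.822 and 1.56, and Rspo1 was 4.85 and 5.91 against 0.546 and 1.41. Dkk3 overlapped at 1.20 and 2.45 against 1.19 and 2.16. Neither call held when either warm sWAT library or the male warm aWAT library was left out, where the coefficients were 1.61 to 2.02 for Wnt2b and 1.57 to 1.84 for Dkk3, and Dkk3 was also lost without the female warm aWAT library (1.70).

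Mesothelium, the cell layer that covers abdominal fat, moved with these genes. All 5 of its measured markers were higher in warm aWAT than in sWAT, Upk3b for example at 23.7 and 51.1 against 2.05 and 3.26, with Lrrn4 at 0 in both warm sWAT libraries and Upk1b at 0 in the male one. Among the sWAT libraries, the cold male had the highest mesothelium sum, 12.7 against 2.64 to 3.74 in the others, and also the highest Wnt2b, Dkk3 and Rspo1 (1.56, 2.16 and 1.41). In bat iBAT, Rspo1 was 0.269 and 3.87 warm and 5.47 and 2.94 cold. The mesothelium sums were 0.391 and 1.36 warm and 2.48 and 0.976 cold, which put these libraries in the same order. In warm sWAT, Rspo1 was 0.123 and 0 at sums of 2.64 and 3.74. The part of mesothelium in the Wnt2b, Dkk3 and Rspo1 differences was not tested.

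In bat abdominal fat 5 members were called between 10 °C and 30 °C, Wnt11 higher and Daam2, Tcf7l1, Fzd7 and Lrp5 lower in the cold. Of the 31 members, 1 rose and 4 fell at 10 °C in aWAT (14.2% of all genes called, 9.6% higher and 4.56% lower), 14 had an unadjusted p under 0.05, and the median coefficient was -0.41 against -0.03 over all genes. In bat iBAT and bat sWAT no member was called by limma (2.23% and 1.08% of all genes called), with 2 and 3 members at an unadjusted p under 0.05. The aWAT count was 1 without the female warm and 1 without the female cold aWAT library. The warm libraries of each depot also enter the depot comparisons above. The difference between the depots' cold changes was itself tested: no member passed for aWAT minus sWAT (3.66% of all genes called, 11 members at an unadjusted p under 0.05) or for aWAT minus iBAT (0.136%, 4 members). Left-out libraries gave counts above 0 for aWAT minus sWAT, with 1 without the male warm sWAT or either warm iBAT library and 2 without the male cold aWAT library, which also gave 1 for aWAT minus iBAT. The cold changes of the 3 depots are therefore given side by side and were not shown to differ.

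Wnt11 was the member that rose. It had 11.3 and 6.60 scaled FPKM in warm aWAT and 80.9 and 20.3 in cold aWAT, 5.67 times the mean (2.11 ± 0.49, adjusted p = 0.0206). The female cold library was far above the male one and near the level of cold iBAT, 86.2 and 83.4. Without that female library the coefficient was 1.14, and neither this value nor those without either warm library (2.45 and 1.77) passed. In sWAT Wnt11 was 4.67 and 5.75 warm and 7.12 and 5.79 cold. In iBAT it was higher in both cold libraries than in either warm one.

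Daam2 fell the most. It went from 64.1 and 73.0 to 10.6 and 10.1 scaled FPKM in aWAT, to 0.150 of the warm mean (-2.62 ± 0.41, adjusted p = 0.00399), and was called under all 19 alternatives run. The cold aWAT values lay within the range of the 4 bat iBAT libraries, 8.14 to 30.6. In sWAT the values were 60.3 and 86.8 warm and 46.9 and 56.3 cold, also without overlap. The test of aWAT minus sWAT gave -2.13 ± 0.58 for Daam2 (adjusted p = 0.0784), which missed the threshold.

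The other members that fell were a TCF factor and 2 receptors. Tcf7l1 fell from 22.9 and 20.1 to 5.95 and 11.0 (-1.30 ± 0.30, adjusted p = 0.0195), Fzd7 from 8.81 and 6.60 to 3.10 and 3.98 (-0.94 ± 0.20, adjusted p = 0.0136) and Lrp5 from 46.0 and 38.0 to 23.6 and 22.0 (-0.85 ± 0.19, adjusted p = 0.0189). The 3 were not called without the female warm library (-1.21, -0.75 and -0.72) or without the female cold library (-0.91, -0.80 and -0.90), nor was Lrp5 without the male cold library (-0.80). In bat iBAT both cold libraries were below both warm ones for Tcf7l1 (10.6 and 15.5 to 4.56 and 7.29) and Fzd7 (3.55 and 3.34 to 1.68 and 1.37), with coefficients of -1.03 ± 0.30 (adjusted p = 0.105) and -0.82 ± 0.20 (adjusted p = 0.0629). These did not pass the threshold.

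Sfrp5 and Rspo3 had lower values in cold aWAT that did not pass. Sfrp5 was 27.2 and 85.4 warm and 7.77 and 10.7 cold (-2.28 ± 0.83, adjusted p = 0.0978). Rspo3 was 4.37 and 11.9 warm and 1.08 and 3.20 cold (-1.50 ± 0.56, adjusted p = 0.106). Each was lower in the cold in the female and in the male library. Sfrp5 passed in 3 of 19 alternatives, among them without either warm sWAT library (-2.28 and -2.29), and Rspo3 in 1 of 19. In sWAT, Sfrp5 was 7.26 and 66.7 warm and 32.1 and 54.9 cold, with overlap. Axin2 was 1.63 and 3.40 warm and 1.49 and 1.62 cold in aWAT (-0.41 ± 0.36, 95% interval -1.23 to 0.40), and 1.28 and 3.48 warm and 5.25 and 7.49 cold in sWAT (1.19 ± 0.36, adjusted p = 0.271). The cold sWAT libraries are those with skeletal muscle marker sums of 175 and 335, against 8.33 and 1.81 warm, and the part of muscle in the sWAT values and in the comparisons of aWAT with sWAT was not tested. Ctnnb1 had a coefficient of 0.27 ± 0.18 in cold aWAT (95% interval -0.13 to 0.67).

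Cold aWAT changed in its cell markers as well. Of 6 brown fat markers 4 rose, Ucp1 from 2.83 and 2.49 to 7792 and 2716, and the list's sum went from 379 and 940 to 10380 and 4998. The female cold library had the higher value of Wnt11, of this sum and of the epithelial sum (12.85 against 2.67). Of 5 endothelial markers 2 fell (sums 152 and 140 warm, 76.5 and 102 cold), and 1 each of the fibroblast, mesothelium and Schwann cell lists. The Schwann list summed to 51.6 and 49.6 warm and 4.58 and 8.33 cold, of which S100b, which brown adipocytes are also known to express, was 48.7 and 46.8 and then 1.86 and 5.91. None of these lists had a sum at 0, and their part in the fall of Daam2, Tcf7l1, Fzd7 and Lrp5 or the rise of Wnt11 was not tested.

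**Figure D3:**
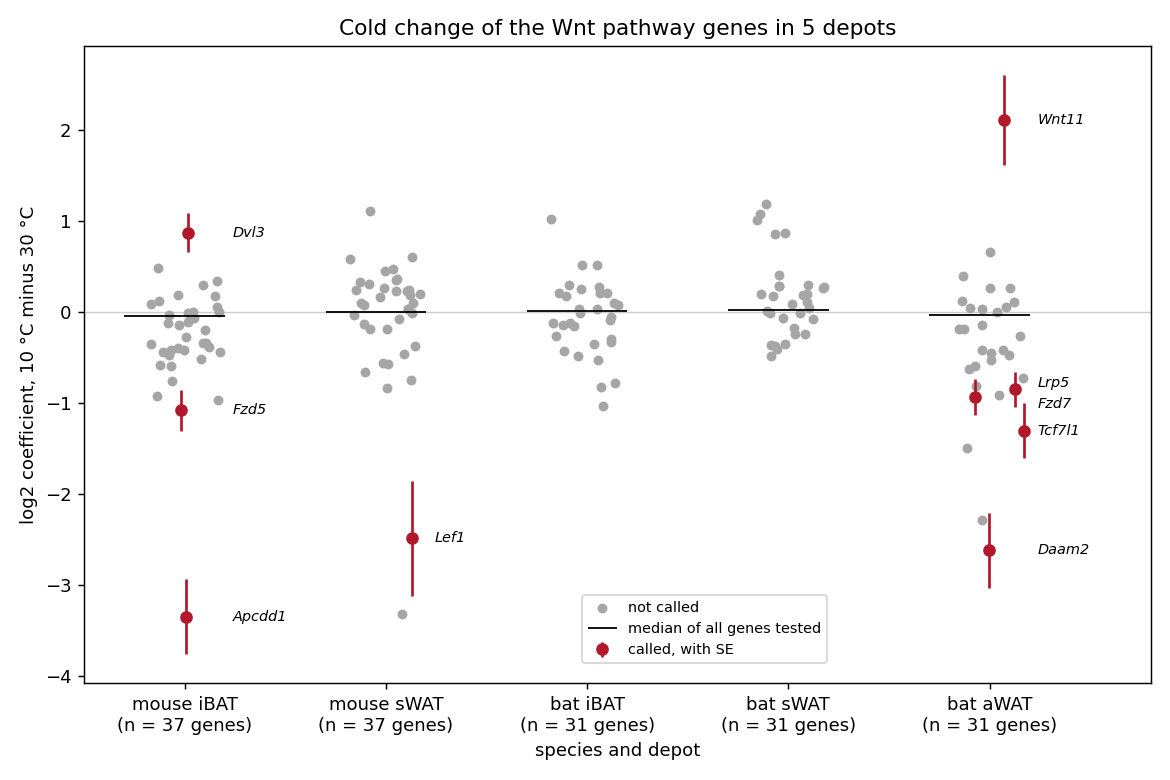
Cold change of each Wnt pathway gene (log2 coefficient, 10 °C minus 30 °C) in 2 mouse and 3 bat depots, with genes not called as grey points, called genes in red with their standard error, and the median over all genes tested as a black line. Bat aWAT holds 5 called genes, mouse iBAT 3, mouse sWAT 1, and bat iBAT and bat sWAT none.

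In mice the TCF factor Tcf7l2 and the inhibitor Sfrp4 were lower in iBAT than in sWAT at both temperatures. At 30 °C, 2 of the 37 members were higher and 8 lower in iBAT than in sWAT (44.6% of the 10689 genes tested were called), with a median of -0.22 over the members and -0.01 over all genes. At 10 °C, 1 was higher and 9 lower (21.6% of all genes called, 12.2% higher and 9.41% lower), with medians of -0.46 and 0.00. The members called were 27% at both temperatures, below the share of all genes at 30 °C. Of the 37 members 10 reached 1 deposited FPKM in sWAT only (Dkk2, Dkkl1, Fzd2, Lef1, Tcf7, Wnt2, Wnt4, Wnt5b, Wnt10a and Wnt10b), so that for these the filter leans towards a lower value in iBAT. Among the other 27 members, 2 were called higher and 3 lower at 30 °C (Axin1, Sfrp4 and Tcf7l2), with no ligand and no other TCF/LEF factor, and 1 higher and 6 lower at 10 °C. Of those lower at 10 °C, Sfrp1 reached 1 deposited FPKM in iBAT only in the warm female library (1.67), so the filter leans for it too. The warm count was 2 without the female and 4 without the male warm iBAT library and 5 without the female warm sWAT library. The cold count was 0 without either cold iBAT library and 6 without the female cold sWAT library.

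Wnt10b (ENSMUSG00000022996), the ligand that holds back adipocyte differentiation, had 0.269 and 0.579 scaled FPKM in warm mouse iBAT and 1.40 and 2.57 in sWAT (-1.05 ± 0.26, adjusted p = 0.0177). At 10 °C it had 0.184 and 0.160 against 2.93 and 1.99 (-1.55 ± 0.26, adjusted p = 0.0121). Wnt2 followed the same order, 0.299 and 0.218 against 1.98 and 1.41 warm (-1.09 ± 0.24, adjusted p = 0.0129) and 0.203 and 0.206 against 2.81 and 1.47 cold (-1.35 ± 0.24, adjusted p = 0.0154). Neither ligand had overlapping groups at either temperature. Wnt10a was called at 30 °C alone, with 0 and 0.0270 in iBAT against 1.01 and 0.778 in sWAT (-0.90 ± 0.20, adjusted p = 0.0128). All 3 ligands passed the filter through sWAT alone. The warm calls were lost without either warm iBAT library, Wnt10b also without the male sWAT library (-1.21 to -0.74 over these 3), and Wnt2 and Wnt10a without the female sWAT library (-1.14 to -0.90 and -0.93 to -0.77). With quantile normalization warm Wnt10b was -0.66 and not called. The cold calls were lost without either cold iBAT library (-1.60 and -1.57 for Wnt10b, -1.37 and -1.39 for Wnt2). Wnt11, high in bat brown fat, was 1.70 and 4.78 in warm mouse iBAT and 1.69 and 1.64 in sWAT.

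Most of the secreted inhibitors used in mouse were lower in cold iBAT than in cold sWAT. Sfrp4 had 0.937 and 0.561 in cold iBAT and 25.6 and 10.4 in cold sWAT (-3.32 ± 0.45, adjusted p = 0.00751). At 30 °C the same comparison was 2.99 and 1.91 against 14.4 and 7.76 (-1.77 ± 0.45, adjusted p = 0.0204). Sfrp2 had 1.41 and 2.72 against 14.8 and 25.6 in the cold (-2.78 ± 0.51, adjusted p = 0.0167). Called lower in cold iBAT as well were Apcdd1 (-3.14 ± 0.41), Sfrp5 (-1.21 ± 0.25), Sfrp1 (-1.01 ± 0.28) and Dkk2 (-0.83 ± 0.18). Of the 8 inhibitors used in mouse, 6 were thus called lower in iBAT at 10 °C (9.41% of all genes). At 30 °C it was 1 of 8 (21.8% of all genes called lower). Among the 8, Dkk2 and Dkkl1 passed the filter through sWAT alone, which leans towards a lower value in iBAT. Sfrp1 and Dkk3 reached 1 deposited FPKM in iBAT only in the warm female library (1.67 and 1.035), with the same lean. All 6 cold calls were lost without either cold iBAT library, at -3.51 and -3.19 for Sfrp4, -2.46 and -3.11 for Sfrp2 and -3.15 and -3.19 for Apcdd1. Sfrp5 was also lost without the female cold sWAT library (-1.29), Dkk2 without that or either warm iBAT library (-0.84 to -0.68) and Sfrp1 without any 1 of the iBAT or cold sWAT libraries (-1.09 to -0.97). With quantile normalization Sfrp5 (-0.86), Sfrp1 (-0.67) and Dkk2 (-0.43) were not called. The warm Sfrp4 call was lost without either warm iBAT or the female warm sWAT library (-1.99 to -1.34). Whether the depot difference changed with temperature is the same test as that of the cold changes, sWAT minus iBAT, in which no member was called (below).

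Of the receptors and intracellular members, Fzd8 was higher in warm mouse iBAT, at 3.05 and 2.83 against 1.07 and 1.26 (0.86 ± 0.16, adjusted p = 0.00637), and so was Daam2, at 3.43 and 2.66 against 1.31 and 1.75 (0.68 ± 0.19, adjusted p = 0.0306). On the deposited scale these were 0.45 and 0.23, neither called. The Daam2 call held in 8 of 15 alternatives and was lost without any 1 of the iBAT or warm sWAT libraries (0.54 to 0.82), while that of Fzd8 held without each library in turn. Axin1 was lower in warm iBAT (-0.76 ± 0.16, adjusted p = 0.0109), a call lost without the female warm iBAT (-0.68) or sWAT library (-0.72). Dvl3, a Dishevelled, was higher in cold iBAT at 10.1 and 7.26 against 3.13 and 3.37 (1.17 ± 0.21, adjusted p = 0.0153). It was not called on the deposited scale (0.62) or without either cold iBAT or the female cold sWAT library (0.98 to 1.41). Tcf7l2, the TCF factor most studied in adipocytes, was lower in iBAT at both temperatures, at 1.11 and 1.65 against 3.53 and 2.98 warm (-0.84 ± 0.19, adjusted p = 0.0145) and at 0.706 and 0.477 against 3.10 and 2.38 cold (-1.23 ± 0.19, adjusted p = 0.0110). The warm call was lost without the female iBAT (-0.67) or sWAT library (-0.73), and the cold one without either cold iBAT library (-1.35 and -1.14).

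**Figure D4:**
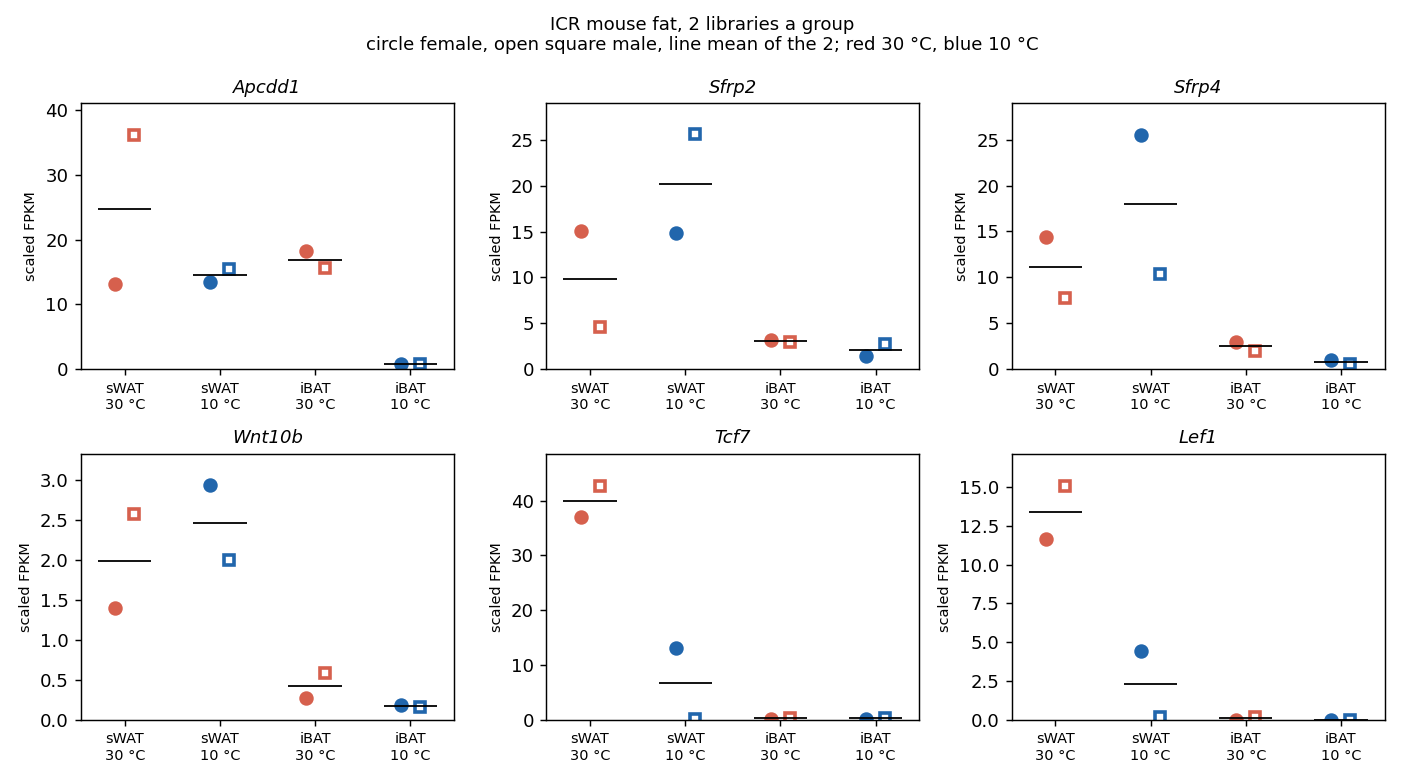
Scaled FPKM of 6 Wnt pathway genes in the 4 mouse groups, with each library as a point (circle female, open square male) and the mean of the 2 as a line, red at 30 °C and blue at 10 °C. Apcdd1 is at 0.730 and 0.773 in cold iBAT and at least 13.1 in every other library, and Tcf7 and Lef1 are high in 3 of the 4 sWAT libraries.

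Markers of other cells moved with these depot differences too. In warm mouse iBAT 8 of 9 fibroblast markers and all 4 macrophage, 4 T lymphocyte and 4 B lymphocyte markers were lower than in sWAT, and in cold iBAT 8 of 9 fibroblast and all 4 macrophage markers. Higher in warm iBAT were 4 of 6 brown fat markers, 3 of 5 endothelial markers (median coefficient 1.51), and 1 marker each of the fat cell, mesothelium and Schwann cell lists, and in cold iBAT 3 of 6 brown fat markers. Endothelial sums were 204 and 203 in warm iBAT and 74.7 and 99.2 in warm sWAT. Of 4 skeletal muscle markers none was called at either temperature, with median coefficients of 6.44 at 30 °C and -0.59 at 10 °C. Muscle sums were 1247 and 1083 in warm iBAT and 14.5 and 5.30 in warm sWAT. In the cold they were 3.21 and 845 in iBAT and 9.57 and 1035 in sWAT. Fibroblast sums were 328 and 299.8 warm and 184 and 186 cold in iBAT, and 800.1 and 670.1 warm and 1008 and 988 cold in sWAT. Wnt10a was 1.01 and 0.778 in warm and 0.372 and 0.0420 in cold sWAT, and Axin1 was 9.58 and 9.20 and then 7.09 and 5.19. For both genes the lowest sWAT value was in the cold male library, where the T lymphocyte sum was also lowest at 2.33. The part of these cells in the lower Wnt10a, Wnt10b, Wnt2, Sfrp, Axin1 and Tcf7l2 values of iBAT was not tested. Nor was their part in the higher Fzd8, Daam2 and Dvl3 values.

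Tcf7 (ENSMUSG00000000782) and Lef1 (ENSMUSG00000027985), the TCF/LEF factors that T lymphocytes are known to express at high levels, had the largest coefficients among the members called between the warm mouse depots, and passed the filter through sWAT alone. Tcf7 had 0.220 and 0.349 in iBAT against 37.0 and 42.7 in sWAT (-4.99 ± 1.00, adjusted p = 0.00923), and Lef1 had 0.0171 and 0.168 against 11.7 and 15.1 (-3.71 ± 0.64, adjusted p = 0.00557). The Lef1 call held in all 15 alternatives run, and that of Tcf7 was lost without either warm iBAT library (-4.92 and -5.08). In cold sWAT the female library held 13.2 of Tcf7 and 4.47 of Lef1, and the male library 0.187 and 0.185, which is the level of iBAT. Both genes thus divided the sWAT libraries in the same way as the lymphocyte markers.

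Lef1 was the only member called in cold mouse sWAT, where it fell (-2.49 ± 0.64, adjusted p = 0.0441); 17.7% of all genes were called and 7 members had an unadjusted p under 0.05. Tcf7 had a coefficient of -3.31 ± 1.00 (adjusted p = 0.0635). It was called without the female (-5.07) and without the male cold sWAT library (-1.53), on the deposited scale (-3.75) and with quantile normalization (-3.65). Without the male cold sWAT library Lef1 was -1.39, still called. The Lef1 call was lost without either warm sWAT library (-2.61 and -2.28) or any 1 of the 4 iBAT libraries (-2.53 to -2.49), and the count of members was then 0. Further, that count was 2 without the male and 7 without the female cold sWAT library. The 4 measured T lymphocyte markers and the 4 B lymphocyte markers were all lower in both cold sWAT libraries than in either warm one, with none of the 8 called. Cd3e, a T cell receptor component, was 24.1 and 28.3 warm and 10.4 and 0.227 cold, and the B lymphocyte sum was 302 and 289 warm and 148.0 and 2.14 cold. None of the 8 markers was at 0 in an sWAT library. Of the other lists, 4 of 6 brown fat, 2 of 9 fibroblast, 2 of 5 endothelial and 1 of 4 Schwann cell markers rose in cold sWAT. The part of lymphocytes and these other cells in the Tcf7 and Lef1 values was not tested.

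Female and male mouse sWAT differed in another set of members. Wnt5b, a beta-catenin-independent ligand, had 7.09 and 5.65 in the female libraries (30 °C, then 10 °C) and 0.971 and 0.441 in the male ones. Wnt4, a ligand known from mammary gland development, had 0.703 and 0.907 against 0.0165 and 0.0482, and Fzd7 had 6.03 and 5.14 against 1.45 and 2.12. Dkkl1 had 5.64 and 5.19 against 1.96 and 0. Epcam, an epithelial marker, followed the same split at 42.6 and 28.1 against 0.725 and 0.0515, and Krt14 was 13.8 and 4.66 against 0.0344 and 0. These members were picked after their values were seen, sex was not a tested comparison, and the part of epithelium was not tested.

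**Figure D5:**
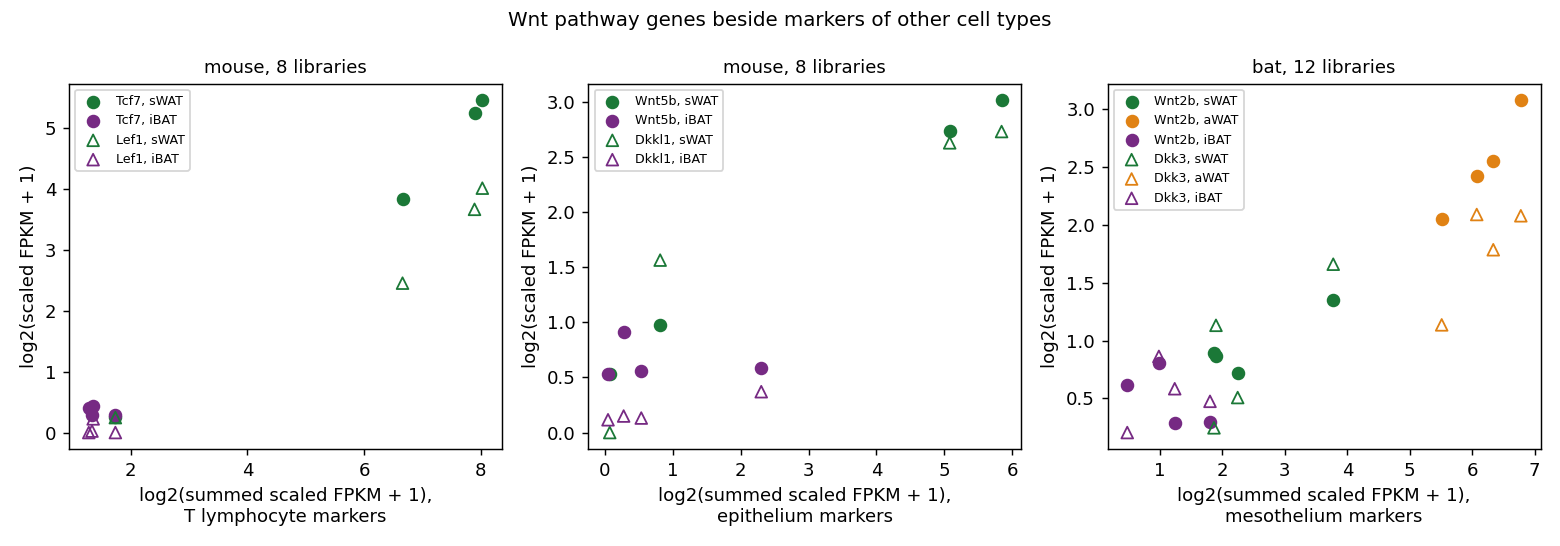
Levels of Wnt pathway genes against the summed level of cell type markers in each library, all as log2(scaled FPKM + 1): Tcf7 and Lef1 against T lymphocyte markers and Wnt5b and Dkkl1 against epithelial markers in 8 mouse libraries, and Wnt2b and Dkk3 against mesothelium markers in 12 bat libraries. Colours give the depot and marker shapes the gene. Tcf7 and Lef1 are highest in the 3 sWAT libraries with T lymphocyte sums of 100.1 to 260, Dkk3 overlaps between cold aWAT and cold sWAT, and the plots carry no test.

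Cold reduced Apcdd1 in mouse brown fat. Apcdd1 (ENSMUSG00000071847) had 18.2 and 15.6 scaled FPKM in warm iBAT and 0.730 and 0.773 in cold iBAT, so that the warm mean was 22.5 times the cold mean (-3.35 ± 0.41, adjusted p = 0.00992). In sWAT it was at 13.1 and 36.2 warm and 13.5 and 15.5 cold (-0.57 ± 0.41, 95% interval -1.56 to 0.42), a coefficient that was 0.14 without the male warm sWAT library. The iBAT call held in 11 of the 15 alternatives run and was lost when any 1 of the 4 iBAT libraries was left out, where the coefficient stayed between -3.47 and -3.26. Of the 37 members 3 were called in cold mouse iBAT, 1 higher and 2 lower (10.2% of all genes called), and 7 had an unadjusted p under 0.05. The median was -0.27 over the members against -0.04 over all genes.

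The receptor Fzd5 fell from 1.08 and 2.16 to 0.226 and 0.206 (-1.08 ± 0.23, adjusted p = 0.0354), and Dvl3 rose from 5.11 and 3.46 to 10.1 and 7.26 (0.87 ± 0.21, adjusted p = 0.0494). The rise of Dvl3 was called in 3 and the fall of Fzd5 in 8 of 15 alternatives. Without any 1 of the iBAT libraries no member was called, and without either warm sWAT library 1 was. Daam1 had a coefficient of -0.60 ± 0.15 (adjusted p = 0.0519) and Tcf7l2 one of -0.58 ± 0.19 (adjusted p = 0.110), neither past the threshold, though Daam1 passed in 4 of 15 alternatives. Axin2 was 2.50 and 3.42 warm and 2.62 and 4.05 cold (0.12 ± 0.33, 95% interval -0.68 to 0.92), and Ctnnb1 was 73.0 and 67.2 warm and 97.0 and 81.9 cold (0.34 ± 0.15, adjusted p = 0.191). On the deposited scale these were -0.18 and -0.06, the opposite sign for both genes.

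Muscle marker sums were 1247 and 1083 in the warm and 3.21 and 845 in the cold iBAT libraries. Apcdd1 in the same libraries was 18.2 and 15.6 warm and 0.730 and 0.773 cold. Fibroblast markers moved with the cold: 3 of 9 fell, with sums of 328 and 299.8 warm and 184 and 186 cold, and 1 each of the endothelial and macrophage lists fell. None of these sums was at 0, and the part of muscle, fibroblasts and these other cells in the fall of Apcdd1 was not tested. In the difference of the cold changes, sWAT minus iBAT, no mouse member was called by limma (0.0187% of all genes called, 10 members at an unadjusted p under 0.05), and Apcdd1 had 2.78 ± 0.58 (adjusted p = 0.137). That count was 3 without the female cold sWAT library.

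The cold changes of bats and mice differed in brown fat for 2 of the 27 members used in both (4.19% of the 9400 genes tested), and in sWAT for none (11.8%, 5 members at an unadjusted p under 0.05). The sWAT count was 1 without the male warm and 4 without the female cold mouse sWAT library. In iBAT the difference, bat minus mouse, was 3.00 ± 0.48 for Apcdd1 (adjusted p = 0.00563). Bat Apcdd1 was 2.54 and 1.28 in warm and 1.14 and 1.33 in cold iBAT, beside the fall of 3.35 on the log2 scale in mouse. From its warm level bat Apcdd1 could not have fallen that far on the log2(scaled FPKM + 1) scale. The part of the low bat level in the size of the difference was not tested. For Dvl3 the difference was -1.13 ± 0.26 (adjusted p = 0.0296), with bat values of 7.32 and 8.05 warm and 5.88 and 6.67 cold. The Apcdd1 difference was called in all 27 alternatives run and that of Dvl3 in 19. Dvl3 was not called, which left a count of 1, without the male warm or the female cold mouse iBAT library (-0.90 and -0.94), nor without any 1 of the 4 bat iBAT libraries (-1.20 to -1.05).

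Other genes of the pathway, from a list of receptors, inhibitors, kinases, cofactors, targets and planar polarity genes outside the families above, held from 0 to 6 called genes in each cold comparison. Of 62 tested in mouse, 3 fell and none rose in cold iBAT (4.84%, against 10.2% of all genes), and 2 rose and 4 fell in cold sWAT (9.68%, against 17.7%). In cold mouse iBAT the target gene Myc fell (-1.89 ± 0.41, adjusted p = 0.0373), from 5.73 and 4.15 to 0.575 and 0.598 scaled FPKM, and Porcn, the enzyme that lipidates Wnt ligands, fell as well (-0.73 ± 0.16, adjusted p = 0.0395). Both were lost without any 1 of the iBAT or warm sWAT libraries (-2.10 to -1.71 and -0.86 to -0.58). In cold mouse sWAT the nuclear cofactor Aes rose (0.79 ± 0.19) and the beta-catenin cofactor Bcl9 fell (-0.59 ± 0.15). These were called in 5 and 4 of 15 alternatives and lost without any 1 library other than the female cold sWAT one (0.66 to 0.81 and -0.63 to -0.45), and Aes was -0.0247 with quantile normalization.

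Of 63 tested in bat, 2 rose and 4 fell in cold aWAT (9.52%, against 14.2% of all genes). The corepressor Tle1 fell (-1.36 ± 0.21) and was called without each library in turn. Aes rose (1.31 ± 0.30), as did the beta-catenin antagonist Cby1 (0.84 ± 0.19), while the cofactor Bcl9l (-0.92 ± 0.25), the beta-catenin inhibitor Ctnnbip1 (-0.82 ± 0.20) and the cadherin Celsr2 (-0.74 ± 0.19) fell. These 5 were lost without the female warm aWAT library (1.25, 0.73, -1.15, -0.65 and -0.85) or the female cold one (0.84, 0.72, -0.86, -0.79 and -0.61). Aes (1.38), Bcl9l (-0.69) and Celsr2 (-0.62) were also lost without the male warm aWAT library and Bcl9l (-0.98) and Ctnnbip1 (-0.85) without the male cold one. Bcl9l was lost too without either cold sWAT or either warm iBAT library (-0.92 to -0.91). In cold bat iBAT 1 fell, the receptor-degrading ligase Znrf3 (-0.94 ± 0.19; 1.59%, against 2.23% of all genes), which was lost without any 1 of the iBAT, sWAT or warm aWAT libraries (-1.04 to -0.84). In cold bat sWAT none was called by limma, with 1.08% of all genes called and 5 genes of the list at an unadjusted p under 0.05.

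Between depots more of the same list was called. In warm bats 6 genes were higher and 10 lower in iBAT than in sWAT (25.4%, against 24.1% of all genes). Gpc3, a cell-surface proteoglycan, had 2.82 and 8.81 scaled FPKM in iBAT against 181 and 397 in sWAT (-5.46 ± 0.56, adjusted p = 0.000238), and Tle1 was lower too (-1.53 ± 0.21). Ccnd1, the cyclin that is a standard target gene, was higher at 9.01 and 11.6 against 1.42 and 2.52 (1.94 ± 0.29, adjusted p = 0.00146), as was Rnf43, a ligase that removes Frizzled receptors (1.65 ± 0.33, adjusted p = 0.00602). Against aWAT 4 were higher and 9 lower (20.6%, against 18.7%). Reck, a partner of the Wnt7 receptors, was the single gene called between aWAT and sWAT, higher in aWAT (1.81 ± 0.22, adjusted p = 0.00442; 1.59%, against 0.844%), and was lost without the male sWAT library (1.63). In mice 5 were higher and 13 lower in iBAT at 30 °C (29%, against 44.6%) and 1 higher and 9 lower at 10 °C (16.1%, against 21.6%). Among the lower ones at both temperatures were the Dishevelled regulators Dact1 (-1.24 ± 0.15 and -1.58 ± 0.15) and Dact2 (-1.35 ± 0.21 and -2.19 ± 0.21) and the target gene Ccn5 (-1.86 ± 0.22 and -2.15 ± 0.22). The calls given here for Gpc3, Tle1, Ccnd1, Rnf43, Dact1, Dact2 and Ccn5 held under every alternative run.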

How the data were processed

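RNA sequencing of fat from 8 mouse and 12 bat libraries was used, 2 (1 female, 1 male) in each of 10 groups. The authors deposited 1 table of FPKM for 14871 genes. The submitters' processing notes list CASAVA 1.8. Which aligner, counter and genome build were used, and how bat reads came to carry mouse identifiers, is not given in the sources used here. Symbols were found for 14723 identifiers and not for 148. Read totals are unknown, so no counting interval was computed. FPKM sums were 263338 to 305098 in mouse and 294103 to 358510 in bat libraries.

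A gene was tested in a species where 2 or more of its libraries had 1 FPKM or more, which left 10689 genes in mouse, 11025 in bat and 9400 in both. Values were multiplied by median-of-ratios library factors, since on the deposited scale the median gene moved by up to 0.57 (log2) between groups. Then log2(value + 1) was fitted by group in limma 3.58.1 (R 4.3.3) with a trend of the spread on the mean. All libraries of a species share 1 estimate of the spread, and both species were fitted together for comparisons between them. Tests were two-sided, the Benjamini-Hochberg adjustment ran over all genes kept, and genes were called at an adjusted p under 0.05. The procedure was tested on simulated data. Permutation of 2 against 2 libraries cannot reach 0.05 and was not used. Alternatives were the deposited scale, quantile normalization, a pseudocount of 0.1, no filter, sex as a block, no trend, only the libraries compared, and each library left out in turn.

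The members, the cell marker lists and the list of other pathway genes were chosen with earlier results of these data known. Named were all members called, a set of core members called or not (among them Ctnnb1, Axin2, Tcf7l1, Lrp5, Sfrp5 and Rspo3), and of other pathway genes up to 4 a role by size of the coefficient among those called. Some were left out for length.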

Additional observations from a re-analysis of the deposited data

Results flagged for a closer look

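The cold response of brown fat differed between the species in 2 members, by a test of the difference itself in limma. For Apcdd1 it was 3.00 on the log2 scale, bat minus mouse (adjusted p = 0.00563, 2.68 to 3.79 over 27 alternatives). Both cold mouse iBAT libraries lay below both warm ones, while the bat libraries, 2.54 and 1.28 warm and 1.14 and 1.33 cold, overlapped. From that low warm level bat Apcdd1 could not have fallen as far as mouse Apcdd1 on the log2(scaled FPKM + 1) scale. For Dvl3 it was -1.13 (adjusted p = 0.0296, -1.36 to -0.90 over 27 alternatives). Dvl3 was higher in both cold mouse libraries and lower in both cold bat libraries than in the warm ones. The labelled temperatures are the same in both species, and the part of the assignment of bat reads to mouse identifiers was not tested.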

How the results depend on the processing

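Directions were counted over the alternatives run. Of 80 results of members (every member called, and core members with an unadjusted p under 0.05), none changed direction. Of 78 results of other pathway genes called, 2 did: Aes in mouse sWAT cold (-0.0247 with quantile normalization) and Hbp1 between warm mouse depots (-0.0594 on the deposited scale). Of 407 results of members not called, 178 changed sign under at least 1 alternative, among them 53 of 105 of core members, and 46 were called under at least 1. The female minus male difference of a group was correlated over genes with that of each other group. Between bat depots at the same temperature this gave 0.26 to 0.55, and between bat groups at different temperatures -0.20 to 0.054. Between the mouse depots it gave 0.44 at 30 °C and 0.38 at 10 °C, and between mouse groups at different temperatures 0.0024 to 0.48. Libraries of 1 sex and temperature thus deviated together across depots, and the comparisons between depots were fitted without this pairing. The block on sex below uses 1 term for both temperatures and does not model it. With sex as a replicate block, 7 of the 80 member results passed that otherwise did not: Sfrp5 (adjusted p = 0.0480) and Rspo3 (0.0220) in bat aWAT cold, Rspo3 (0.00722) and Tcf7l1 (0.0263) for bat iBAT against sWAT, and Axin2 in bat sWAT cold (0.0479), in the bat cold response aWAT minus sWAT (0.0336) and in sWAT bat minus mouse (0.0280). None of the 80 lost its call under it, and of the other genes Bcl9 in mouse sWAT cold was (adjusted p = 0.0520). A pseudocount of 0.1 gave larger coefficients for low genes. Counts of called members that moved by over 1.5 times were as follows. On the deposited FPKM scale, 5 members were called in mouse iBAT cold (main 3), 5 in mouse sWAT cold (main 1), 2 in the bat cold response aWAT minus sWAT (main 0), 1 in iBAT bat minus mouse (main 2) and 5 in sWAT bat minus mouse (main 0). With quantile normalization the counts were 1 in mouse iBAT cold, 3 in mouse sWAT cold and 1 in bat aWAT minus sWAT cold response. A pseudocount of 0.1 gave 0 in mouse sWAT cold and 1 in bat iBAT cold (main 0), no trend gave 2 in mouse sWAT cold, and no filter gave 7 in bat iBAT against sWAT (main 11). Sex as a replicate block gave 1 in bat sWAT cold (Axin2; main 0), 2 in the bat cold response aWAT minus sWAT and 1 in sWAT bat minus mouse. With only the libraries compared in the fit, the counts were 0 in mouse sWAT cold, 1 in bat aWAT cold (main 5), 5 in mouse iBAT against sWAT at 10 °C (main 10), 4 in bat iBAT against sWAT, 6 in bat iBAT against aWAT (main 11), 1 in bat aWAT against sWAT (main 2) and 1 in the bat cold response aWAT minus sWAT. The cause of these moves was not tested, except that a fit of 4 libraries has fewer to estimate the spread from.

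Leaving out 1 library in turn, with a lone library assumed to vary like the other groups, gave 0 to 4 members in mouse iBAT cold, 0 to 7 in mouse sWAT cold, 0 in bat iBAT cold and bat sWAT cold, and 1 to 6 in bat aWAT cold. Between depots it gave 2 to 13 in mice at 30 °C, 0 to 13 in mice at 10 °C, 3 to 12 for bat iBAT against sWAT, 6 to 11 against aWAT and 0 to 3 for bat aWAT against sWAT. For differences of cold responses it gave 0 to 3 in mouse, 0 to 2 and 0 to 1 in bat, 1 to 2 for iBAT and 0 to 4 for sWAT between the species.

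Over all genes, the deposited scale moved the split of higher and lower calls. It was 304 and 1202 in mouse iBAT cold (main 693 and 398), 755 and 2867 in mouse sWAT cold (main 1186 and 707), 1144 and 5126 between mouse depots at 30 °C (main 2435 and 2330) and 248 and 2946 at 10 °C (main 1304 and 1006). It was 135 and 108 in bat iBAT cold (main 179 and 67), 844 and 1386 for bat iBAT against aWAT (main 1042 and 1016), 353 and 104 for iBAT bat minus mouse (main 190 and 204) and 1553 and 436 for sWAT bat minus mouse (main 421 and 684). Groups of 2 libraries limit the precision, and depth is unknown.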
